A study of Rattus norvegicus with 9 samples.

Results

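The voltage-gated calcium channel subunits followed here were the 10 genes Cacna1a, Cacna1b, Cacna1c, Cacna1d, Cacna1e, Cacna1g, Cacna1h, Cacna1i, Cacna2d1 and Cacna2d3. They were chosen by their symbol in the array annotation. Each was read by 1 probe set, so that they made up 10 of the 29214 probe sets with values. They are 8 pore-forming (alpha1) and 2 alpha2delta subunits. Expression was measured on Affymetrix Rat Gene ST arrays in 3 tissues, whole blood, the hippocampus (HC) and the prefrontal cortex (PFC), taken from untreated male Wistar rats, bought at 6 weeks of age and kept for 1 week. Each tissue had 3 arrays, from the rats numbered 2, 5 and 7 in the labels, so that each rat gave all 3 tissues. The sources used here do not give the same number of animals, and only these 3 rats have arrays. Blood was drawn into tubes with an RNA stabiliser. HC and PFC were punched from frozen coronal sections. These are bulk samples, in which fewer cells of a type and less RNA per cell cannot be told apart.

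Voltage-gated calcium channels open when a membrane depolarises and let calcium into the cell. The pore-forming alpha1 subunit sets the channel's type. P/Q-type (Cacna1a), N-type (Cacna1b) and R-type (Cacna1e) channels sit at presynaptic terminals and in dendrites, where the P/Q and N types trigger transmitter release. L-type channels (Cacna1c, Cacna1d) pass calcium that signals to enzymes and to gene expression. T-type channels (Cacna1g, Cacna1h, Cacna1i) open at small depolarisations and support burst firing. Auxiliary alpha2delta subunits, and the beta subunits inside the cell, bring the pores of the high-voltage types to the membrane.

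All values are the authors' log2 expression values, and a difference of 1 is a doubling. Values compare 1 probe set between tissues, and the levels of different probe sets are not set against each other. A transcript was counted as present where its mean over the 3 arrays of a tissue was above 6.2, the intensity cut-off of the study. The study also asked for a detection p-value, which was not used here. Tests were limma fits across all 29214 probe sets, and a difference was called at a Benjamini-Hochberg adjusted p under 0.05. The number of arrays limits the precision, and an exact permutation test of 3 against 3 arrays cannot go below 0.1 (two-sided). The median SD of a probe set over the 3 rats was 0.24 in blood, and in HC and PFC it was 0.08 and 0.09. The tissue labels were checked on marker lists. All 10 neuron markers passed the cut-off in both brain regions, and 2 of 10 did so in blood. All 7 erythroid, 8 T cell and 8 neutrophil markers on the array were present in blood, against at most 1 of each list in either brain region. Of 7 markers of hippocampal fields, 6 were called higher in HC. Only 3 neocortical layer markers were on the array, all present in both brain regions and none called different.

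All 10 members were higher in brain than in blood. Their 6 brain values lay between 7.18 and 10.29, and their 3 blood values between 4.26 and 6.74. In each of the 10 genes every brain value was above every blood value, a pattern that 27.3% of all probe sets showed. By limma, 10 of 10 members were called higher in brain (mean of HC and PFC) than in blood, where 30.0% of all probe sets were called higher, 49.6% lower and 79.6% in either direction. The median of the members' differences was 2.89, beside a median of -0.31 over all probe sets. No member was called lower, and none was lower at an unadjusted p under 0.05. On the linear scale the smallest brain level was 2.61-fold that of blood (Cacna1g). For Cacna2d1, at background in blood, only a bound can be given.

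**Figure D1:**
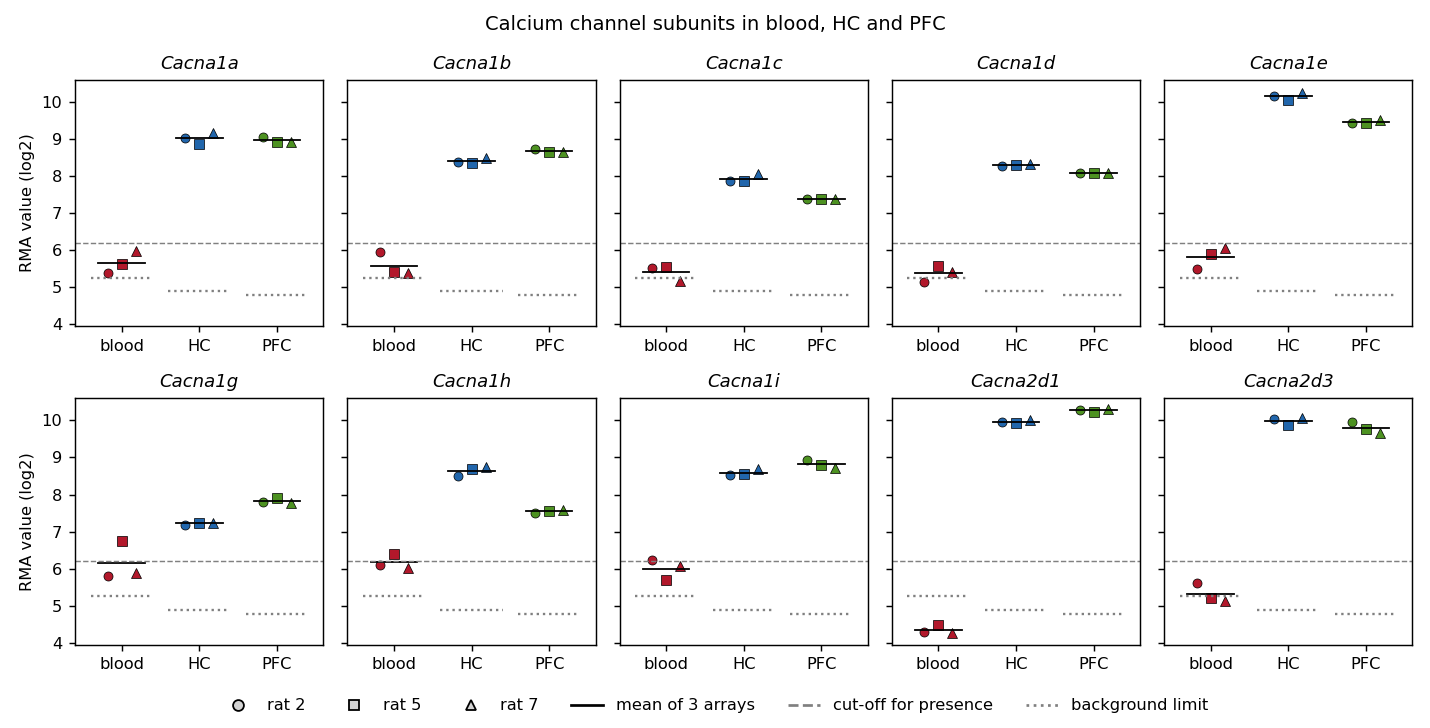
Log2 expression (y axis) of the 10 calcium channel subunits in blood, HC and PFC, with 1 panel per gene. Points are arrays (circle rat 2, square rat 5, triangle rat 7), bars are means of 3 arrays, the dashed line is the presence cut-off of 6.2 and the dotted lines are the background limit of each tissue. The 6 brain values lie above the 3 blood values in every panel, with the smallest gap, 0.44, for Cacna1g.

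Cacna2d1, an alpha2delta subunit that binds the drug gabapentin, had the widest difference of the members. It was 4.29, 4.48 and 4.26 in the blood of rats 2, 5 and 7. The same rats gave 9.94, 9.93 and 9.996 in HC and 10.28, 10.23 and 10.29 in PFC. The fitted difference between brain and blood was 5.77 ± 0.08 (SE, adjusted p = 5.12e-11, limma). Its 3 blood values were below a background limit, set from receptors of smell, taste and the vomeronasal organ. These receptors were assumed to be silent in the 3 tissues, which was not tested. The limit was the 95th percentile, over 228 probe sets of chemosensory receptors, of the tissue mean, and it was 5.25 in blood, 4.89 in HC and 4.78 in PFC. With the blood mean raised to that limit the brain level of Cacna2d1 was still at least 4.86 higher on the log2 scale. Cacna2d3, the other alpha2delta subunit, read 5.61, 5.22 and 5.13 in blood, 10.03, 9.87 and 10.05 in HC, and 9.96, 9.77 and 9.67 in PFC. Its difference was 4.58 ± 0.12 (SE, adjusted p = 8.72e-10).

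The pore-forming subunits of the P/Q, N and R types followed. Cacna1e (R-type) was 5.50, 5.88 and 6.07 in blood, 10.15, 10.06 and 10.25 in HC, and 9.43, 9.44 and 9.52 in PFC. It differed between brain and blood by 3.99 ± 0.12 (SE, adjusted p = 1.96e-09, limma), the widest difference of the 8 pores. Cacna1a (P/Q-type) was 5.38, 5.63 and 5.97 in blood, 9.03, 8.87 and 9.15 in HC, and 9.05, 8.92 and 8.92 in PFC, a difference of 3.33 ± 0.13. Cacna1b (N-type) was 5.94, 5.41 and 5.37 in blood, 8.38, 8.35 and 8.48 in HC, and 8.73, 8.63 and 8.66 in PFC, a difference of 2.96 ± 0.13. Both L-type pores were also far above their blood values. Cacna1d was 5.15, 5.58 and 5.41 in blood, 8.28, 8.30 and 8.33 in HC, and 8.08, 8.08 and 8.09 in PFC, which made a difference of 2.82 ± 0.10. Cacna1c was 5.51, 5.54 and 5.17 in blood, 7.86, 7.86 and 8.05 in HC, and 7.37 on each of the 3 PFC arrays, a difference of 2.24 ± 0.10. The 3 PFC values of Cacna1c were identical in the deposited table, as they were for 478 probe sets in PFC, 542 in HC and 14 in blood, so that its spread in PFC is not known.

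Among the T-type pores, Cacna1h and Cacna1g had the smallest differences of the 8 pores. Cacna1i was 6.23, 5.69 and 6.08 in blood, 8.53, 8.54 and 8.68 in HC, and 8.94, 8.80 and 8.70 in PFC, a difference of 2.70 ± 0.12. Cacna1h was 6.11, 6.39 and 6.01 in blood, 8.51, 8.68 and 8.75 in HC, and 7.51, 7.57 and 7.58 in PFC, a difference of 1.93 ± 0.10. Cacna1g was 5.80, 6.74 and 5.89 in blood, 7.18, 7.24 and 7.24 in HC, and 7.80, 7.92 and 7.78 in PFC. Its difference of 1.38 ± 0.19 (SE, adjusted p = 8.04e-05, limma) was the smallest of the 10. The blood value of rat 5 stood apart from those of rats 2 and 7, and the blood SD of 0.522 was the largest of any member. In the order of differences from Cacna1a down to Cacna1g (Cacna1a, Cacna1b, Cacna1d, Cacna1i, Cacna1c, Cacna1h, Cacna1g), the 95% intervals of each pair of neighbours overlapped. Those of Cacna1a and Cacna1e, and of Cacna1e and both alpha2delta subunits, did not.

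None of the 10 members was present in blood, and all 10 were present in either brain region. The share of all probe sets above the cut-off was 46.9% for blood, 47.2% for HC and 47.1% for PFC. T-type pores gave all the single blood values above 6.2, those of Cacna1g and Cacna1h in rat 5 and of Cacna1i in rat 2, or 3 of 30. Without rat 2, and again without rat 7, the blood means of Cacna1g and Cacna1h passed 6.2. All members but Cacna2d1, or 9, were above the background limit in blood. A wider limit was added after the data were seen, with the receptors under their current symbols (1297 probe sets, 5.53 in blood). By that limit 6 members were above background in blood, and Cacna1c, Cacna1d and Cacna2d3 were below it beside Cacna2d1. With the blood means raised to it, the brain levels of Cacna2d1, Cacna2d3, Cacna1d and Cacna1c were at least 4.58, 4.36, 2.66 and 2.11 higher. The blood means of the other 6 members were above that limit, which about 1 in 20 receptor probe sets also pass by its definition. For Cacna1b, 2 of the 3 blood arrays (5.41 and 5.37) were below it, as was 1 array each of Cacna1a (5.38) and Cacna1e (5.50). Scaling each array on a panel of 20 housekeeping genes lowered every difference between brain and blood by 0.77. All 10 members were still called higher in brain, and the differences of Cacna1c, Cacna1h and Cacna1g became 1.47, 1.16 and 0.61.

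**Figure D2:**
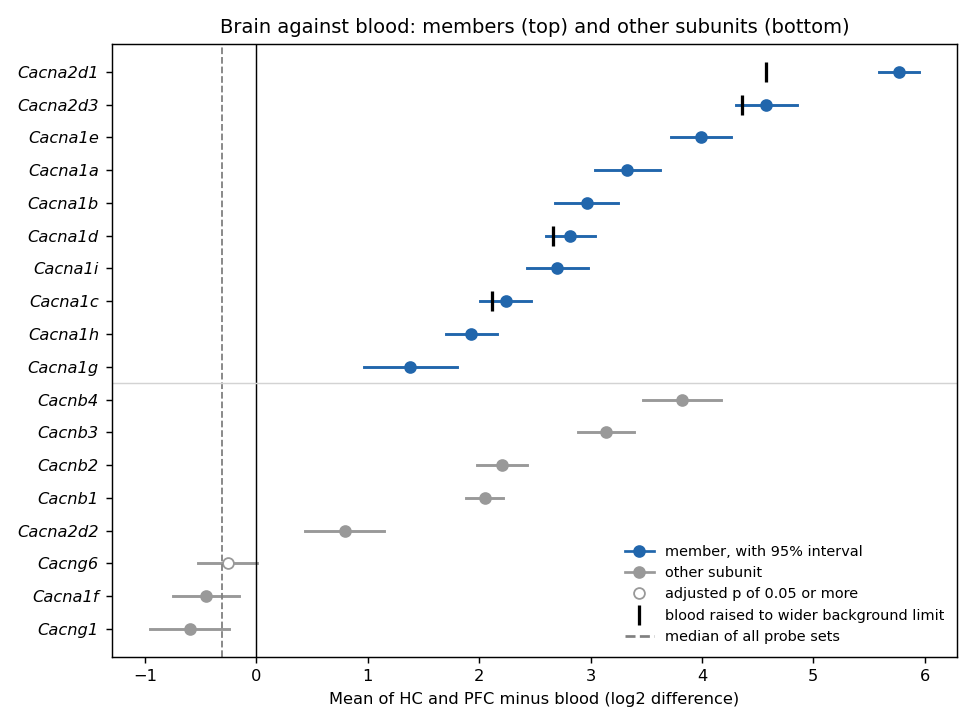
Difference between the brain mean and the blood mean (x axis, log2) for the 10 members (blue, upper rows) and 8 other channel subunits (grey, lower rows). Points are limma estimates with 95% intervals, and open points have an adjusted p of 0.05 or more. Black ticks give the difference of a member with blood raised to the wider background limit, where that changes it. No ticks were drawn for the other subunits. The dashed line is the median of all probe sets, -0.31. All members lie to the right of 0, from 1.38 (Cacna1g) to 5.77 (Cacna2d1).

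Between the brain regions the members' differences had both signs. By limma, Cacna1h, Cacna1e and Cacna1c were called higher in HC than in PFC, 3 of 10 members, where 2.11% of all probe sets were called higher in HC, 2.33% lower and 4.44% in either direction. No member was called lower in HC, although 2 were lower at an unadjusted p under 0.05 (Cacna1g and Cacna2d1). All HC values were above all PFC values in 4 members (Cacna1c, Cacna1d, Cacna1e, Cacna1h), beside 14.9% of all probe sets. The reverse held in 4 (Cacna1b, Cacna1g, Cacna1i, Cacna2d1), beside 15.0%. Cacna1a and Cacna2d3 overlapped. The median of the 10 differences was 0.12, and that of all probe sets was 0.00.

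The 3 T-type pores differed in direction. Cacna1h was higher in HC in each rat, by 0.99, 1.11 and 1.17 in rats 2, 5 and 7. Its difference of 1.09 ± 0.12 (SE, 95% interval 0.83 to 1.35, adjusted p = 0.000601, limma) was a 2.13-fold higher level in HC, and the widest of the members. Cacna1g had the opposite sign in each rat, with differences of -0.61, -0.68 and -0.54. The 6 brain values did not overlap, and the estimate was -0.61 ± 0.21 (SE, 95% interval -1.09 to -0.13, adjusted p = 0.214). Cacna1i had smaller differences of -0.40, -0.26 and -0.03 (estimate -0.23, 95% interval -0.55 to 0.08, adjusted p = 0.679). The Cacna1g call turned on 1 blood array. Without the blood array of rat 5, Cacna1g was called lower in HC (adjusted p = 0.00147), as was Cacna2d1 (adjusted p = 0.0202). The 3 tissues share 1 estimate of the spread in the fit.

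Among the P/Q, N and R types, Cacna1e was higher in HC by 0.72, 0.62 and 0.73 in the 3 rats. Its estimate was 0.69 ± 0.14 (SE, 95% interval 0.38 to 1.003, adjusted p = 0.0217, limma). Cacna1b had differences of -0.35, -0.29 and -0.18, and its estimate of -0.27 had a 95% interval of -0.60 to 0.06 (adjusted p = 0.59). Cacna1a differed by -0.02, -0.05 and 0.23, with an interval of -0.28 to 0.39 around 0.05. Of these 3 types only the R-type pore was called, and the HC and PFC values of the P/Q-type pore overlapped.

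Both L-type pores had higher values in HC in every rat. Cacna1c differed by 0.48, 0.49 and 0.68, with an estimate of 0.55 ± 0.12 (SE, 95% interval 0.29 to 0.82, adjusted p = 0.0295, limma). Its 3 PFC values were identical, so that its differences varied only through HC and its PFC spread entered the fit as 0. Cacna1d differed by 0.19, 0.22 and 0.24, and its estimate of 0.22 had an interval of -0.04 to 0.47 (adjusted p = 0.55). Of the alpha2delta subunits, Cacna2d1 differed by -0.34, -0.30 and -0.30 (estimate -0.31, interval -0.52 to -0.11, adjusted p = 0.115). Cacna2d3 differed by 0.08, 0.10 and 0.39, an estimate of 0.19 with an interval of -0.13 to 0.50. Its HC and PFC values overlapped.

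**Figure D3:**
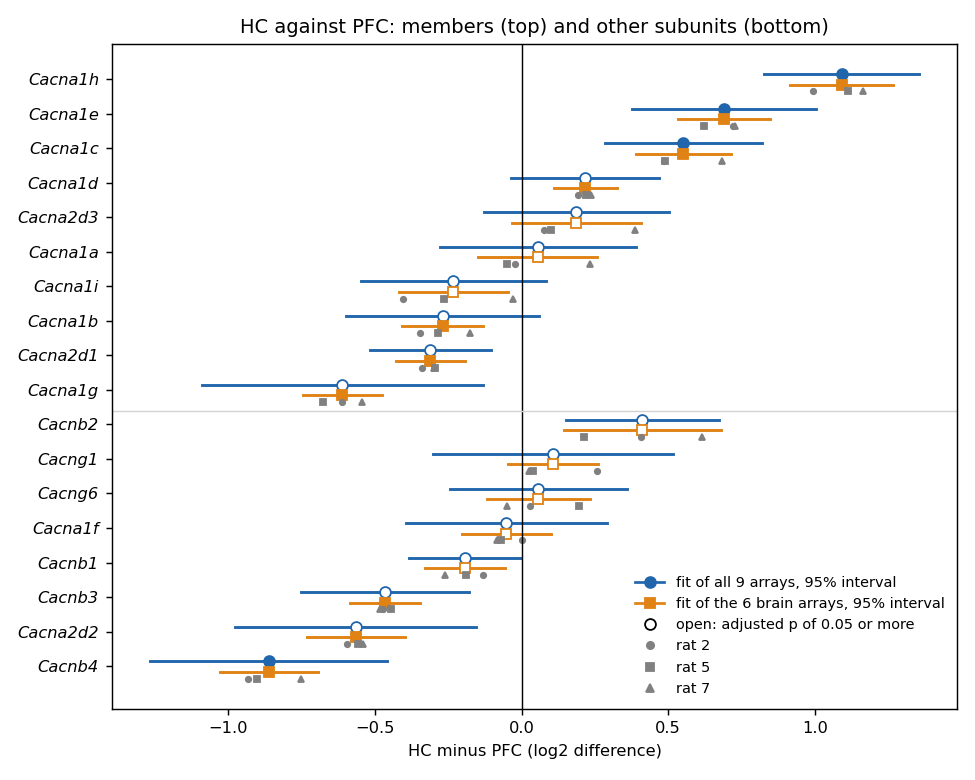
Difference between HC and PFC (x axis, log2, positive where HC is higher) for the 10 members (upper rows) and 8 other subunits (lower rows), with estimates and 95% intervals from all 9 arrays (blue) and from the 6 brain arrays alone (orange), open where the adjusted p is 0.05 or more, and the differences within rats 2, 5 and 7 in grey. Of the members Cacna1h lies farthest to the right at 1.09 and Cacna1g farthest to the left at -0.61.

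The calls between HC and PFC depended on which arrays entered the fit. The SD of a member over the 3 rats was 0.120 to 0.522 in blood and at most 0.147 in HC or PFC. Fitted on the 6 brain arrays alone, 7 of 10 members were called, 4 higher in HC and 3 lower, where 6.11% of all probe sets were called higher and 6.36% lower. Those higher were Cacna1h (adjusted p = 0.000299, limma), Cacna1e (0.00113), Cacna1c (0.0031, with identical PFC values) and Cacna1d (0.0253). Those lower were Cacna1g (0.00103), Cacna2d1 (0.00866) and Cacna1b (0.0284). Cacna1i (0.117), Cacna2d3 (0.276) and Cacna1a (0.756) were not called. Identical values also recurred for Cacna1d in PFC (8.08337, 8.08337 and 8.09229) and Cacna1g in HC (7.18278, 7.23983 and 7.23983). Their spread there is uncertain as well. With the rat added to that fit as a block, after the data were seen, 3 members were higher (Cacna1c, Cacna1e, Cacna1h) and 2 lower (Cacna1g, Cacna2d1). Cacna1h was called in each of the 12 fits of the 3 tissues that left out 1 array or 1 rat (adjusted p from 0.000214 to 0.0359). Cacna1e and Cacna1c lost their call without any single HC or PFC array or any rat (adjusted p from 0.0626 to 0.212 and from 0.0892 to 0.248). Cacna1c also lost it with the rat as a fixed block in the fit of all tissues (adjusted p = 0.076) and after housekeeping scaling (0.0878).

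Some markers of other cell types and regions also differed between the punches. The mean level of the 10 neuron markers was 11.04 to 11.12 over the HC arrays and 11.23 to 11.32 over the PFC arrays, and none was called different. The 7 oligodendrocyte markers averaged 9.84 to 10.20 in HC and 8.91 to 9.49 in PFC, with 5 called higher in HC. Of 8 astrocyte markers, averaging 10.70 to 10.77 in HC and 10.35 to 10.36 in PFC, 1 was called higher in HC (Gfap). Of 7 choroid plexus markers, 3 were called higher in HC (Ttr, 6.07, Clic6, 1.12 and Sostdc1, 0.73). The list averaged 5.67 to 6.28 in HC and 4.61 to 4.71 in PFC. Only Ttr was present in HC (10.42), and 0 of the 7 were present in PFC. The 7 hippocampal field markers averaged 8.05 to 8.12 in HC and 6.21 to 6.30 in PFC. In the other direction, 2 of 7 striatum markers (Penk, -0.93 and Tac1, -0.95) were called lower in HC, where the list averaged 6.15 to 6.18 beside 6.57 to 6.59 in PFC. Of 7 erythroid markers 1 was called lower in HC (Hbb, -0.97), and the list averaged 5.08 to 5.29 in HC and 5.50 to 5.73 in PFC. Called higher in HC were also 1 of 8 T cell markers (Cd3e, 2.10) and 1 of 5 thalamus and habenula markers (Lhx9, 1.13). No call was made among 8 endothelial and mural, 8 microglia, 4 platelet, 5 B cell and 8 neutrophil markers. The part of these cell types in the differences of the members was not tested.

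The genes whose 9 values ran most closely with those of Cacna1h, by Pearson's r across the 9 arrays of 3 tissues, were Galnt17 (0.998), Tle1 (0.996) and Slc16a14 (0.996). Those for Cacna1g were Npas2 (0.994), Podxl2 (0.989) and Epdr1 (0.988). These coefficients are a description, since the arrays share tissues and rats and the step from blood to brain enters each of them. Galnt17 had means of 6.21 in blood, 8.79 in HC and 7.69 in PFC. Npas2 went the other way between the regions, with 6.43 in blood, 8.12 in HC and a higher 9.14 in PFC.

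The members also differed in the sequence before their start sites. RefSeq promoters of assembly GRCr8 were matched by symbol for 7 of the 10 members, all but Cacna1g, Cacna1h and Cacna1i. Over the 250 bases before the start, the GC content of the 7 ran from 51.2% (Cacna1e) to 88.8% (Cacna1d), and the number of CG dinucleotides from 3 (Cacna1c) to 56 (Cacna1d). Over 27457 genes the medians were 52% and 6, and the 90th percentiles 68.8% and 25. Cacna1c and Cacna1e, the lowest in CG and in GC, are shown with Cacna1d and Cacna2d1, the richest in GC boxes at the first listed start. They are the ends of the range among genes that were all higher in brain than in blood. Capitals mark GGGCGG on either strand (written CCGCCC on the other), and each sequence reads 5′ to 3′ on the strand of its gene.
Cacna1c (chr4:154051749-154051998, minus strand): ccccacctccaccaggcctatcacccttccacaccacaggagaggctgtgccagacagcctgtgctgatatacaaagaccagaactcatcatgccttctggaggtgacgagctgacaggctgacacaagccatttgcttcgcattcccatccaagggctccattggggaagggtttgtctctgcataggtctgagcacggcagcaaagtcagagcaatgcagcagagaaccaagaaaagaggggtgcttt
Cacna1e (chr13:69444811-69445060, minus strand): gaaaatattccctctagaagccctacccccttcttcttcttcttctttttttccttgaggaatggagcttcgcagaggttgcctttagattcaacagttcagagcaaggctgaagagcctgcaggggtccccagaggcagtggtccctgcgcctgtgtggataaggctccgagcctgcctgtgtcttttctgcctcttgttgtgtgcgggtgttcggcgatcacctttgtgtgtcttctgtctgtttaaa
Cacna1d (chr16:5527550-5527799, minus strand): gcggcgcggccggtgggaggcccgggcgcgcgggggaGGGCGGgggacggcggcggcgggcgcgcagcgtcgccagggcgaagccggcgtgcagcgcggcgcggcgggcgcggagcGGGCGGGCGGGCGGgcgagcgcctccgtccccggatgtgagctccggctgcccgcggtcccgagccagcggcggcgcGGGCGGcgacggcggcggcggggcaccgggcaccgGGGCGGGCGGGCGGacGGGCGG
Cacna2d1 (chr4:20330148-20330397, minus strand, first of 3 starts listed): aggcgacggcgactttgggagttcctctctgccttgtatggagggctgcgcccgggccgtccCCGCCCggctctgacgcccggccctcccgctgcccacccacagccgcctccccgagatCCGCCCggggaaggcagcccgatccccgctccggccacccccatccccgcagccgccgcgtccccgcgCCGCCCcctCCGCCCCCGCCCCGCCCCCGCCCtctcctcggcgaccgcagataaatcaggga

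The GC box was found in 5 of the 7 members, with overlapping matches counted, and in 32.4% of all promoters of that length. Cacna1d held 9, Cacna2d1 7, Cacna2d3 4, Cacna1b 3 and Cacna1a 1, while Cacna1c and Cacna1e held no match. Cacna2d1 was read at the first of its 3 listed starts, and its other starts held 3 GC boxes each. The TATA box TATAAA was in 0 of 7 (13.1% of all promoters), the cyclic AMP response element TGACGTCA in 0 (1.7%) and the E box CACGTG in 0 (5.79%). The shorter TGACG, which is part of TGACGTCA, was in 3 members (Cacna1b, Cacna1c, Cacna2d1) and in 19.0% of all promoters. In Cacna2d1 it was found only at the first listed start. CCAAT was in 2 (Cacna1b, Cacna1c) and in 34.3%. All motifs were searched on both strands, and a match is a description of the letters only.

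The other subunits of the same channels were mixed. Of 10 further subunits listed, 8 had a probe set, and 5 of these were called higher in brain than in blood, 2 lower and 1 was not called, with a median difference of 1.42. For this list and those below, the shares of all probe sets called higher and lower were 30.0% and 49.6%. All 4 beta subunits, which carry the pore to the membrane, were higher in brain. Cacnb4 was 5.33, 4.78 and 5.59 in blood, 8.66, 8.57 and 8.63 in HC, and 9.60, 9.47 and 9.38 in PFC. Its difference between brain and blood was 3.82 ± 0.16 (SE, limma), and 3.52 with the blood mean raised to the wider limit. The other beta subunits differed by 3.14 (Cacnb3), 2.20 (Cacnb2) and 2.05 (Cacnb1), and Cacnb1 and Cacnb2 were present in blood. Cacna2d2, an alpha2delta subunit, differed by 0.79 ± 0.16 (adjusted p = 0.0012), and by 0.02 after housekeeping scaling, where it was not called. Cacng1, the gamma subunit of skeletal muscle, was called lower in brain (-0.60, adjusted p = 0.00611), with a blood mean of 5.55 that barely passed the wider limit. Cacna1f, the L-type pore of photoreceptors, was also called lower, but its means of 5.34 in blood and 4.86 in HC were below the wider limits, so no size is given. Between the regions Cacnb4 was called in the fit of all 9 arrays, lower in HC by -0.86 ± 0.18 (adjusted p = 0.0256). It was called in 3 of the 12 fits that left out 1 array or 1 rat, and with the 6 brain arrays alone (adjusted p = 0.000604). That second fit also called Cacnb3 (-0.47, adjusted p = 0.00182) and Cacna2d2 (-0.56, adjusted p = 0.00323) lower in HC.

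Proteins that bind or regulate the channels, 19 of 20 listed genes, were called higher in brain in 14 cases and lower in 3, with a median difference of 2.67. Snap25 and Syt1, a SNARE protein and the calcium sensor of vesicle release that work beside the presynaptic channels, differed by 7.81 and 7.30. Their blood means were under the background limits, and with these raised to the wider limit the differences were at least 7.18 and 6.31. Gem and Rem1, small GTPases that hold back the channels, were lower in brain by -0.82 and -0.53, beside a median of -0.31 over all probe sets. Rem1 was under the presence cut-off in blood (5.65), HC (5.05) and PFC (5.20), and Gem in HC (5.52) and PFC (5.77). Of the 19, 5 were called between the regions by limma, beside 4.44% of all probe sets in either direction. Rem2, a GTPase of the same family, was 6.48, 6.06 and 6.30 in HC and 5.29, 5.25 and 5.05 in PFC (difference 1.08, adjusted p = 0.000761). Stac2, an adaptor of L-type channels, was 6.62, 6.51 and 6.34 in HC and 8.72, 8.64 and 8.28 in PFC (difference -2.05, adjusted p = 9.2e-05). Stx1a, the syntaxin that binds the N and P/Q types, differed by -1.68, Cabp1, a calcium-binding modulator, by -1.46, and Tspoap1, a scaffold of the active zone, by -0.60. Rem2 was thus higher in HC and the other 4 were lower, with no overlap of HC and PFC values. Of all probe sets, 14.9% had all HC values above all PFC values and 15.0% the reverse. These 5 genes were named for their call, so the lack of overlap adds no support. Stx1a and Stac2 were called in all 12 fits with an array or rat left out, Rem2 and Cabp1 in 11 and Tspoap1 in 4.

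Effectors of the calcium signal, 15 of 17 listed genes, were called higher in brain in 13 cases and lower in 2, with a median of 2.31. Camk2a and Camk2b, the main forebrain subunits of calmodulin kinase II, differed by 5.81 and 4.51. Kcnn4, the calcium-activated potassium channel of red cells and lymphocytes, was lower in brain by -3.72, and Creb1, a transcription factor downstream of calcium, by -0.34. The difference of Creb1 was close to the median of -0.31 over all probe sets. Camk2d, Camk4 and Camk2g, kinases that calmodulin activates, were called lower in HC than in PFC, by -1.55, -1.01 and -0.74 (adjusted p = 0.000197, 0.00249 and 0.00556, limma). They were called in 12, 11 and 10 of the 12 fits with an array or rat left out. Of all probe sets, 2.33% were called lower in HC. The channels of intracellular stores and store-operated entry, 11 of 11 listed genes, had 4 called higher and 5 lower in brain, with a median of -0.03. This split was near that of all probe sets, 30.0% higher and 49.6% lower. Ryr2 and Itpr1, release channels of the endoplasmic reticulum, differed by 4.50 (at least 3.92 with the blood mean raised to the wider limit) and 3.29. Orai1, the pore of store-operated entry, and Itpr2 were lower in brain by -1.16 and -1.14. Between the regions Ryr3, Orai2, Ryr2 and Stim2 were called higher in HC, by 1.72, 0.75, 0.71 and 0.65 (adjusted p = 0.000206, 0.013, 0.0446 and 0.024). The share of all probe sets called higher in HC was 2.11%. Ryr3 was called in all 12 fits with an array or rat left out, Orai2 in 6, Stim2 in 3 and Ryr2 in 2 (without the blood array of rat 5 or of rat 7). Ryr2 also lost its call with the rat as a block (adjusted p = 0.0776) and after housekeeping scaling (0.118). Its 3 PFC values were identical (9.09), so that its spread in PFC is not known. After housekeeping scaling Camk2d, Kcnn1, Orai3 and Rem2 changed the sign of their difference between brain and blood. Kcnn1, a calcium-activated potassium channel, was called in both directions, with 0.36 (adjusted p = 0.0241) before and -0.41 after. With that scaling 4 other channel subunits were called higher in brain and 3 lower, and 13 partners higher and 5 lower. Effectors had 9 called higher and 3 lower, and store channels 4 higher and 7 lower. Cacng6, the subunit not called before (-0.26), was called lower (-1.03), with a blood mean of 5.47, under the wider limit.

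**Figure D4:**
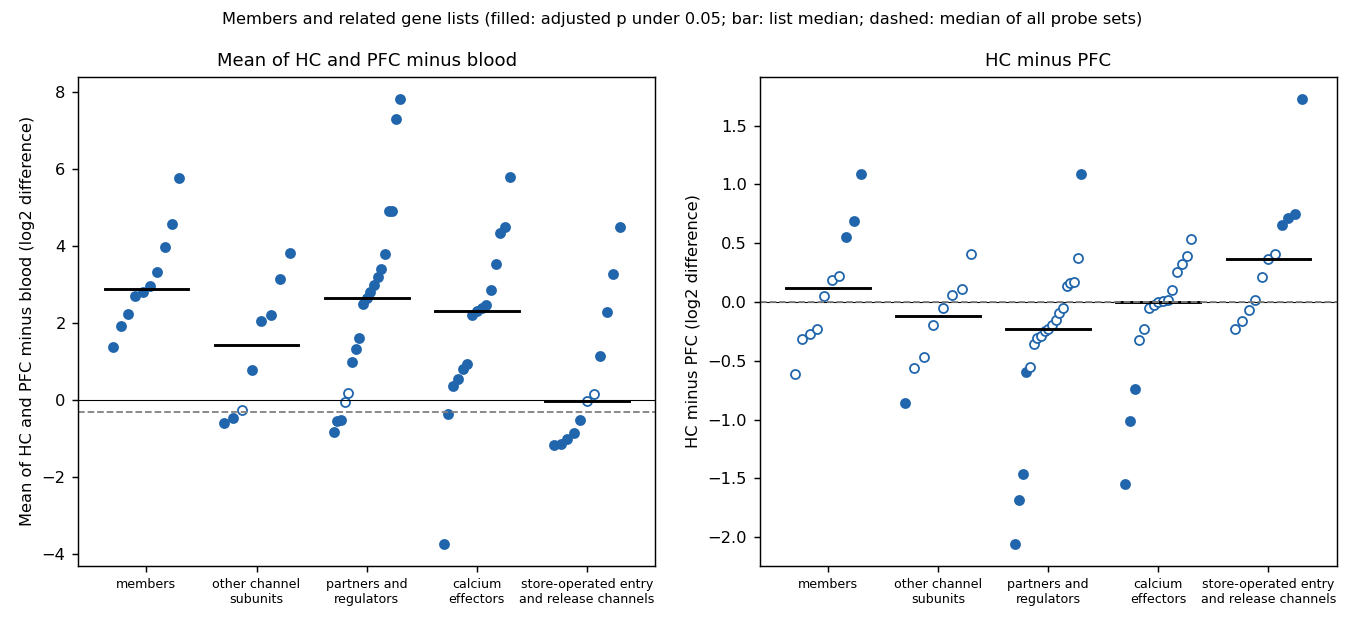
Differences (y axis, log2) of the 10 members and of 4 lists of related genes, between brain and blood in the left panel and between HC and PFC in the right panel. Points are genes, filled where called at an adjusted p under 0.05, and bars are list medians. Between brain and blood the medians are 2.89 for the members, 1.42 for other subunits, 2.67 for partners, 2.31 for effectors and -0.03 for store channels.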

How the data were processed

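Total RNA of 9 samples (3 tissues of 3 rats) was hybridised to Affymetrix Rat Gene ST arrays. The authors deposited 1 table of log2 values per probe set, made from the scanner files with RMA (background correction, quantile normalisation and summary over probes), and this table was used as deposited. The base of the log is not stated in the sources used here and was taken as 2, as RMA gives. Quantile normalisation gives all arrays one distribution, so that values are relative to the whole array. Of 29215 probe sets 29214 had values, from 1.53 to 14.01. Gene symbols came from the platform annotation, in part updated through RefSeq (assembly GRCr8), and 15310 probe sets had exactly 1 symbol, 323 several and 13581 none. The deposited table was fitted with limma 3.58.1 (R 4.3.3) with tissue as a factor, no filter and no block. Contrasts were the mean of HC and PFC minus blood, and HC minus PFC, with Benjamini-Hochberg adjustment over all probe sets. The fit was also run on simulated data in which all tissues had the same spread. In the real data blood varied more (median SD 0.24, against 0.08 in HC and 0.09 in PFC). The simulation therefore cannot show how the fit does with unequal spreads.

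The members, the lists of related genes and markers and the tests were chosen with earlier results of these data known. Named related genes were, for each list, the 2 called genes with the widest difference in each direction between brain and blood, and every gene called between HC and PFC. Equal numbers mark the same animal. Deviations from the tissue means had correlations of 0.21, 0.09 and 0.23 between HC and PFC of rats 2, 5 and 7, and from -0.05 to 0.05 between blood and either brain region. Alternatives were the rat number as a block (fixed, or random), other thresholds, array weights, housekeeping scaling, filters, raised background values, brain arrays alone and each array or rat left out.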

Additional observations from a re-analysis of the deposited data

How the results depend on the processing

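All 10 members stayed higher in brain than in blood in every alternative run, and no called member difference reversed. The difference of Cacna1a between HC and PFC, never called, changed sign and ran from -0.04 to 0.13. Of the related genes, Kcnn1 reversed with housekeeping scaling (0.36 to -0.41, called both times). With the rat as a fixed block 10 members were higher in brain and 2 (Cacna1e, Cacna1h) higher in HC. The 3 members higher in HC became 1 at an adjusted p under 0.01 and 1 at a log2 difference of at least 1, and 1 to 3 with an array or rat left out. The 0 members lower in HC became 3 with array weights, 3 with the brain arrays alone, 2 with the brain arrays alone and the rat as a block, and 0 to 2 with an array or rat left out. The 0 members present in blood became 9 at the background limit, 6 at the wider limit, 4 after housekeeping scaling and 0 to 2 with a rat left out. Of 53 related genes, 36 were higher and 12 lower in brain (30 and 18 after housekeeping scaling, and 3 lower at a log2 difference of at least 1). The 5 related genes higher in HC became 2 at the stricter adjusted p, 2 at the wider difference, 13 with array weights, 9 with the brain arrays alone, 9 with the block added and 1 to 7 with an array or rat left out. The 8 lower in HC became 5 at the wider difference, 19 with array weights, 16 with the brain arrays alone, 14 with the block added and 3 to 11 with an array or rat left out. Over all probe sets 616 were higher and 680 lower in HC, against 325 and 363 at the stricter adjusted p, 217 and 248 at the wider difference, 2237 and 2243 with array weights, 1785 and 1859 with the brain arrays alone, 1499 and 1493 with the block added, and 194 to 1041 and 220 to 1086 with an array or rat left out. Between brain and blood 8764 were higher and 14500 lower, against 5039 and 4751 at the wider difference, and 6319 lower with only present probe sets. Housekeeping scaling gave 4790 higher and 21441 lower, so that 18.3% of the calls were higher in brain in place of 37.7%. The causes were not tested. A second probe set could not be tried, since each member has 1.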
